A study of Mus musculus with 27 samples.

Results

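The early growth response (EGR) factors Egr1, Egr2 and Egr3 and their corepressors Nab1 and Nab2 were followed in macrophages and other immune cells of tumours that MC38 colon adenocarcinoma cells formed in mice. The members were chosen by gene name, 5 of 48440 gene identifiers in the count tables, and all 5 were found in the 6 bulk count tables and in both single cell matrices. All 5 were also among the 12939 genes that passed the filter on low counts in the bulk test. The series holds 27 samples from mice of Ogt-flox genotype, called WT, and from mice of Ogt-flox genotype that also carried Lyz2-cre, called KO. Mice of both groups therefore carry the floxed Ogt gene, the gene of O-GlcNAc transferase, which attaches single sugar residues to nuclear and cytosolic proteins. The cre recombinase is driven by the lysozyme 2 promoter, which is known to be active in macrophages, monocytes and neutrophils alike. Bulk RNA came from tumour-associated macrophages (3 libraries per genotype), and single cell RNA came from CD45-positive tumour cells (1 matrix per genotype, although 2 samples per genotype are labelled). The labels give neither the age of the mice nor which animals the libraries came from, so p-values measure the spread between these libraries.

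EGR factors are zinc finger transcription factors of the immediate early class. Their genes are switched on within minutes of a growth factor, cytokine or antigen receptor signal, mostly through the RAS and ERK kinase pathway acting on serum response factor and its ETS partners. The proteins bind GC-rich DNA. NAB proteins do not bind DNA themselves. They dock onto EGR1, EGR2 and EGR3 and dampen transcription of their targets, and in several cell types EGR factors induce NAB genes, which closes a negative feedback loop. In macrophages, EGR1 and EGR2 follow colony stimulating factor signalling, and EGR2 is known as a factor of interleukin 4 driven alternative activation in mice. In T cells, EGR2 and EGR3 are known for restraining activation after antigen receptor signalling.

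Promoter windows of 3 of the 5 members (250 bases before to 50 after a RefSeq transcript start, build GRCm38.p6) were searched on both strands for the EGR motif GCGTGGGCG, its variant GCGGGGGCG and the CArG box, the binding motif of serum response factor. Windows are shown for 1 corepressor and 1 EGR gene, because they differ in which of these motifs they hold. The Nab1 window, chr1:52500399-52500698 on the minus strand, held 2 copies of GCGTGGGCG, 1 on each strand, and 1 copy of GCGGGGGCG, none of which overlapped another. Capitals mark the motif letters, and the copy on the opposite strand reads CGCCCACGC.
Nab1 promoter window: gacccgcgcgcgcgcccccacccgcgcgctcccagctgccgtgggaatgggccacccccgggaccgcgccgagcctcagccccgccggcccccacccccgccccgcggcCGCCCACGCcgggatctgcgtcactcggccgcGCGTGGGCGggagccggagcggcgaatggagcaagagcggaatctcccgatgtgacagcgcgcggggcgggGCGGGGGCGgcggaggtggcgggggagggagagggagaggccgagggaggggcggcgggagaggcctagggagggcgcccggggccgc
The Egr2 window, chr10:67537619-67537918 on the plus strand, held 1 CArG box, in capitals, and neither EGR motif.
Egr2 promoter window: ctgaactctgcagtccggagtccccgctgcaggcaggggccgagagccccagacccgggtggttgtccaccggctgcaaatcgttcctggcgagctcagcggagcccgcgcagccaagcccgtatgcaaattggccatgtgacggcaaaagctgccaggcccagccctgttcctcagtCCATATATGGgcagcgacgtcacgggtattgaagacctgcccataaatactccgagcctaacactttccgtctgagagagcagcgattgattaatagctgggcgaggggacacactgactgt
Of 32851 RefSeq promoter windows of the same 300 bases, 0.612% held GCGTGGGCG, 2.91% held GCGGGGGCG and 1.63% held a CArG box. A CArG box was found in 4 of the 5 Egr2 windows that RefSeq gives, but these are not separate finds. The windows starting at 67537619, 67537620 and 67537680 overlap and hold the same CCATATATGG. The window starting at 67537316 holds another box, CCTTTTTTGG. The 1 window of Nab2 held none of the 3 motifs. A match of letters is a description and does not show binding.

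The bulk libraries held 7032540 to 32406170 counts. Ogt fell from 56.3 ± 6.24 to 34.7 ± 3.86 CPM (counts scaled to library size with TMM factors; mean ± SD, n = 3 libraries per genotype; log2 fold change -0.72, SE 0.0953, adjusted p = 2.978e-09 with edgeR's quasi-likelihood test). Which exons the floxed allele removes is not stated, so reads from elsewhere in the gene may still be counted. Lyz2, the gene whose promoter drives the cre, was 46.2-fold lower. Summed macrophage markers (10 genes) ran from 11794 to 12058 CPM in WT and from 10927 to 11146 in KO, with 5 markers called higher and 4 lower. Markers of other cells moved between the genotypes as well. The 7 CD8 T cell markers all rose, their sum going from 74.7 to 79.1 CPM in WT to 164 to 175 in KO. The 6 tested markers of migratory dendritic cells all fell, their sum going from 960 to 997 CPM in WT to 502.5 to 502.7 in KO. Of 8 monocyte markers 5 rose and 1 fell, their sum going from 790 to 805 CPM in WT to 1101 to 1150 in KO. Of 8 neutrophil markers 5 fell and 1 rose, their sum going from 147 to 162 CPM in WT to 111 to 121 in KO, and S100a8 was at 1.07 and 0.456 CPM. No marker of these 5 lists was at 0 in every library. In bulk RNA, fewer cells of a type and less RNA per cell cannot be told apart, and the part of these cells in the results below was not tested.

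All 3 EGR factors fell in KO macrophages, and neither corepressor passed the test. In the same comparison 18.9% of all genes tested were called lower and 18.8% higher (37.7% called in all, adjusted p below 0.05), so a single call is common and the sizes are given below. Egr2, known from hindbrain and Schwann cell patterning, was at 268, 255 and 273 CPM in the WT libraries and at 138, 155 and 135 in the KO libraries. The groups lay far apart, with the highest KO library well below the lowest WT library. The mean went from 265 ± 9.54 to 143 ± 10.6 CPM, 1.87-fold lower (log2 fold change -0.90, SE 0.0449, adjusted p = 9.478e-28). Of all genes tested, 3.86% had as large a fall. Egr3, the paralogue best known from muscle spindles and T cells, was at 19.96, 21.1 and 15.2 CPM in WT and at 11.1, 12.8 and 9.66 in KO. The third WT library was lower than the other two but above every KO library. The fall was 1.69-fold (log2 fold change -0.76, SE 0.158, adjusted p = 7.033e-05), and 5.72% of genes had as large a one. Egr1, the most broadly induced member of the family, was at 506, 529 and 536 CPM in WT and at 388, 404 and 382 in KO. It fell 1.34-fold (log2 fold change -0.42, SE 0.0305, adjusted p = 1.965e-19), the smallest of the 3 falls, and 15.7% of genes had as large a one.

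**Figure D1:**
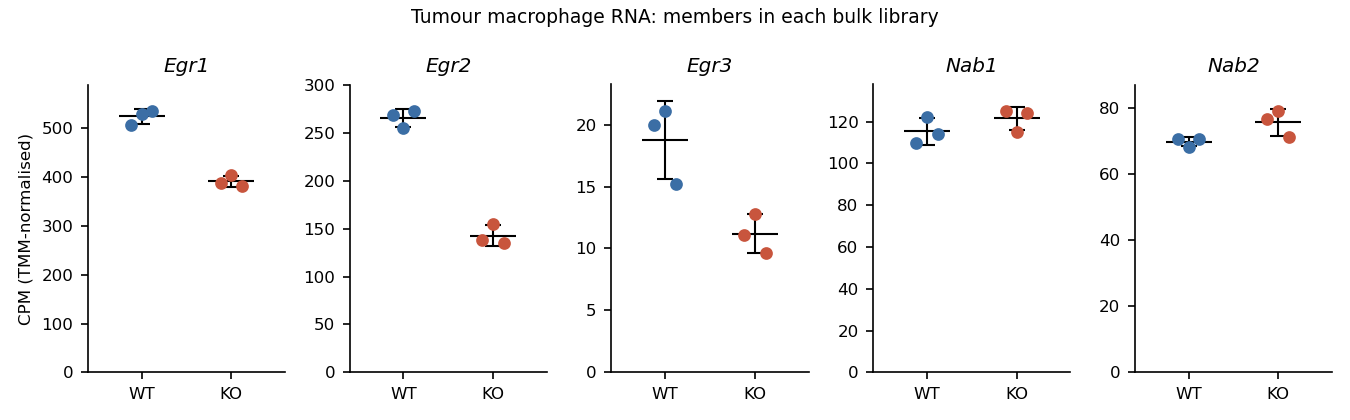
CPM of the 5 members in each bulk macrophage library (points), with the mean and SD (bars) of the 3 libraries per genotype and each axis starting at 0. Egr1, Egr2 and Egr3 lay lower in all KO libraries than in any WT library, with means of 265 and 143 CPM for Egr2, while Nab1 overlapped between genotypes.

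The corepressors did not pass the test. Nab1 was at 110, 122 and 114 CPM in WT and at 125, 115 and 124 in KO, so that the genotypes overlapped (log2 fold change 0.08, SE 0.0566, adjusted p = 0.273). Nab2 was at 70.6, 68.2 and 70.7 CPM in WT and at 76.7, 79.2 and 71.2 in KO. All 3 KO values of Nab2 lay above the WT values, as 46.5% of genes tested lay to 1 side or the other, and the difference did not pass (log2 fold change 0.12, SE 0.0718, adjusted p = 0.203). The 95% intervals of the ratio of KO over WT ran from 0.979 to 1.14 for Nab1 and from 0.984 to 1.20 for Nab2, which leaves room for a rise of such a size. The fourth EGR gene, Egr4, which is no member, was at 1.47 ± 0.685 CPM in WT and 0.466 ± 0.22 in KO and was too low to be tested.

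Per exon length, WT macrophages held more Egr1 than any other member. Scaled to exon length as RPKM, Egr1 was at 117 ± 3.42 in WT and 87.3 ± 2.56 in KO, and Egr2 at 78.1 ± 2.81 and 42.0 ± 3.12. Nab1 was at 28.2 ± 1.56 and 29.6 ± 1.33, Nab2 at 23.7 ± 0.481 and 25.7 ± 1.39, and Egr3 at 13.3 ± 2.21 and 7.90 ± 1.118. The WT libraries of neighbours in this order did not overlap. The exon length of Egr3 in the count tables is 1416 bases, the shortest of the 5, and its level per length rests on that gene model. Within each library, the ratio of Egr2 to Egr1 counts per length was 0.699, 0.635 and 0.673 in WT and 0.469, 0.505 and 0.467 in KO. The ratio of Egr2 to Nab2 was 3.29, 3.23 and 3.34 in WT and 1.55, 1.69 and 1.64 in KO. Neither ratio overlapped between the genotypes. The mean log2 ratio was lower in KO by -0.48 for Egr2 over Egr1 and by -1.01 for Egr2 over Nab2, each with p = 0.1 in an exact two-sided permutation test, which is the smallest p that 3 against 3 libraries can give.

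Genes that lead to EGR transcription moved both ways. Of the 20 signalling genes tested, 7 rose and 8 fell, with a median log2 fold change of 0.06 against -0.0013 over all genes tested. Srf, which encodes serum response factor, fell from 151 ± 10.3 to 99.9 ± 1.76 CPM (adjusted p = 4.257e-15). Map2k2 and Mapk3, which encode the kinases MEK2 and ERK1, fell by 0.34 and 0.28 on the log2 scale. Csf1r, the receptor for colony stimulating factor 1, rose from 961 ± 31.4 to 1297 ± 11.2 CPM (log2 fold change 0.43, adjusted p = 2.723e-26). Without WT replicate 1 or without WT replicate 3, 4 of these genes were called higher in place of 7. Among 9 tested feedback inhibitors of ERK signalling, Dusp5 and Dusp6 fell (log2 fold change -0.52 and -0.27) and Dusp4 rose (0.59), with a median of -0.18. The count of feedback inhibitors that fell was 4 without WT replicate 2, and the count that rose was 2 without WT replicate 3 and without KO replicate 1.

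Most other immediate early genes fell with the EGR factors. Of 24 tested, none of them an EGR gene, 17 fell and 2 rose, with a median log2 fold change of -0.20. Klf2 and Klf4, zinc finger factors with wide roles in macrophages, fell from 709 ± 11.3 to 395 ± 39.0 CPM and from 1688 ± 26.9 to 1033 ± 16.7 CPM. The AP-1 genes Junb and Fosb fell by 0.49 and 0.35 on the log2 scale. The exceptions that rose were Fos (log2 fold change 0.29), the AP-1 gene, and Nr4a2 (0.20), an orphan nuclear receptor gene. Of 22 alternative activation genes, 15 fell and 5 rose, with a median of -0.48. Mmp12, a macrophage elastase gene, fell by 1.14 on the log2 scale, from 1848 ± 11.1 to 837 ± 18.5 CPM. The interleukin 1 receptor antagonist gene Il1rn fell by 0.88, the fibronectin gene Fn1 by 0.74 and the beta-glucan receptor gene Clec7a by 0.65. Of 14 genes tied to EGR2 and EGR3 in T cells, 8 rose and 2 fell, with a median of 0.38. Among these, Nrp1 rose from 49.4 ± 4.78 to 102 ± 1.79 CPM, Lag3 from 45.2 ± 1.25 to 79.5 ± 4.01 CPM and Tnfrsf9 from 23.1 ± 1.6 to 38.4 ± 1.13 CPM, while Ndrg1 fell by 0.56 on the log2 scale. These T cell genes moved in the same libraries as the CD8 T cell markers above, and the part of T cell RNA in them was not tested.

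**Figure D2:**
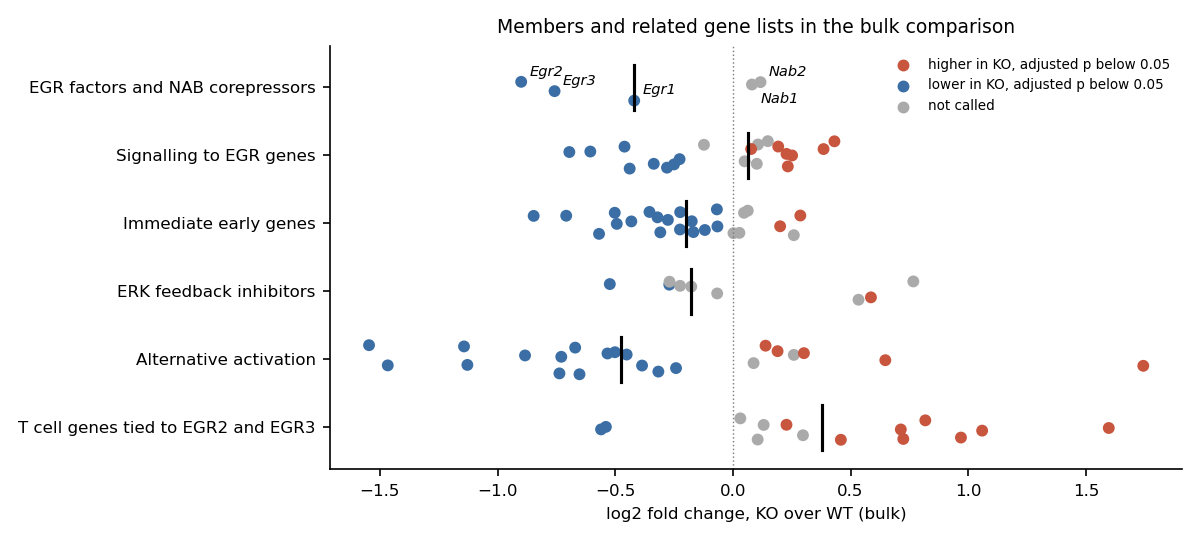
Log2 fold change of KO over WT for the members and 5 related gene lists in the bulk comparison (points are genes, coloured by the call at an adjusted p below 0.05, vertical bars are list medians). The medians were -0.20 for immediate early genes, -0.48 for alternative activation genes and 0.38 for the T cell genes.

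The single cell data comprised 9712 cells from WT and 9767 from KO after filtering. The median cell held 5579 unique molecular identifiers (UMIs) in WT and 5807 in KO, and 23 cell barcodes occurred in both matrices. Cells were clustered without the 5 members, so that these genes did not define the clusters. Of 23 clusters, 18 were named by their markers into 11 classes, written here as macrophage-like and so on. Levels are UMIs summed over the cells of a class and scaled to CPM, with exact 95% Poisson intervals that cover counting error only and take the UMIs of 1 cell as independent, so a few cells with many UMIs can set intervals apart. With 1 matrix per genotype, a difference between genotypes has no replicate and no test. Ogt was at 52.8 CPM in WT and 42.0 in KO over the macrophage and monocyte clusters defined below, against 132 and 128 over all other clusters, and Lyz2 at 3962 and 14.1 over the former. Barcodes with fewer than 100 UMIs, which hold free RNA, gave 95.9 CPM of Egr2 in WT and 81.5 in KO. For Egr1 that level was 370 and 358 CPM, for Egr3 11.4 and 10.6, for Nab1 128 and 133, and for Nab2 39.6 and 44.3.

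Among the named classes, the Egr2 level was highest in macrophage-like cells, at 151 CPM (141 to 162) in WT and 97.4 (90.7 to 104) in KO. Monocyte-like cells followed in WT at 58.4 CPM (53.1 to 64.1), and type 1 conventional dendritic cell (cDC1)-like cells at 52.9 (43.8 to 63.3), with overlapping intervals. Neutrophil-like cells had 36.7 CPM in WT and 54.2 in KO, again with overlapping intervals. B-like cells had 36.3 CPM in WT from 7 UMIs (14.6 to 74.9), which overlapped all 3 of these classes. T-like and NK-like cells were lower, from 22.4 CPM in gamma-delta T-like cells to 9.50 in regulatory T-like cells in WT. The 7 clusters that scored best as macrophages or monocytes held 39.9% of the WT cells and 85.1% of all WT Egr2 UMIs, and 37.2% and 82.1% in KO. Much of this came from 2 of these clusters that stayed unnamed. Cluster 4, which also carries dendritic cell markers, held 44.6% of Egr2 UMIs in WT and 27.2% in KO, and cluster 2 held 15.8% and 28.5%. The cell numbers moved in the same directions, from 1265 to 806 cells in cluster 4 and from 609 to 1024 in cluster 2. A cluster's share of Egr2 UMIs depends on its number of cells as well as on its level. The classes named macrophage-like and monocyte-like held 15.7% and 8.99% in WT and 19.4% and 7.05% in KO. With each cell thinned to 2000 UMIs, 20.3% of WT and 18.3% of KO cells in the 7 clusters had an Egr2 UMI. The shares were 3.3% and 3.4% of cells in all other clusters and 3.6% and 1.6% of NK-like cells. Before thinning, 38.8% and 36.2% of cells in the 7 clusters had one, against 8.6% and 8.3% in all other clusters. Plasmacytoid dendritic cell-like cells had 1 Egr2 UMI in 33 WT cells and 0 in 18 KO cells, which at 3 counts allows a level of up to 20.01 CPM (the Poisson interval reaches 24.6). In WT, macrophage-like cells were the sole class above the Egr2 level of empty droplets, and so they were in KO.

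Complement C1q genes, which macrophages make, give a measure of free macrophage RNA in other cells. In the WT matrix, C1qa, C1qb and C1qc together were at 21.7 CPM in NK-like cells and 26.5 in CD8 T-like cells, 2.07% and 2.53% of their level in empty droplets. Free RNA at those shares would hold 1.99 and 2.42 CPM of Egr2, against measured levels of 15 and 9.72 CPM. In WT neutrophil-like cells the C1q share was 11.3%, which would hold 10.9 CPM of Egr2 against 36.7 measured. B-like cells of the KO matrix were different, with a C1q share of 74.8% and an Egr2 level of 33.7 CPM from 7 UMIs, below the 61.0 CPM that such a share would hold. The low Egr2 level of lymphocytes other than B-like cells lay above this measure in both matrices. Free RNA of macrophages that make little C1q is not covered by it.

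Egr1 had a different order. Neutrophil-like cells were highest, at 2111 CPM in WT (2040 to 2180) and 1841 in KO (1780 to 1900). Of those deep enough to be thinned (430 of 608 in WT), 83.7% in WT and 80.5% in KO had an Egr1 UMI. B-like cells, with 711 CPM in WT, and gamma-delta T-like cells, with 641, came next and overlapped each other. Macrophage-like cells had 463 CPM (444 to 482) and overlapped plasmacytoid dendritic cell-like cells. Monocyte-like, CD4 T-like and cDC1-like cells lay together at 255, 251 and 249 CPM. CD8 T-like cells were lowest in both matrices, at 99.3 CPM (93.5 to 105) in WT and 138 (132 to 145) in KO. The macrophage and monocyte clusters held 45.8% of Egr1 UMIs in WT and 39.4% in KO, close to their share of cells.

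Egr3 was rare, with 630 UMIs in all kept WT cells and 783 in KO. B-like cells had the highest level, 93.4 CPM in WT and 91.4 in KO, from 18 and 19 UMIs, and overlapped neutrophil-like cells, at 46.6 CPM (36.7 to 58.5) in WT and 84.4 (72.7 to 97.4) in KO. Regulatory T-like, CD8 T-like and CD4 T-like cells lay between 4.65 and 12.7 CPM. Macrophage-like cells had 4.90 CPM in WT and 3.56 in KO, and monocyte-like cells 0.925 and 1.98. The 7 macrophage and monocyte clusters together held 22.9% and 23.0% of Egr3 UMIs, of which the unnamed cluster 4 gave 12.9% and 10.1% of all Egr3 UMIs.

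The corepressors were spread over the classes. Nab1 was highest in neutrophil-like cells, at 245 CPM in WT and 222 in KO, and lowest in cDC1-like cells, at 78.4 and 79.8. Most classes in between overlapped their neighbours. Nab2 was highest in WT in regulatory T-like cells (28.2 CPM) and macrophage-like cells (27.4), which overlapped, and low in neutrophil-like cells (8.71). No class exceeded the level of Nab2 in empty droplets, while Nab1 lay above it in several classes.

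**Figure D3:**
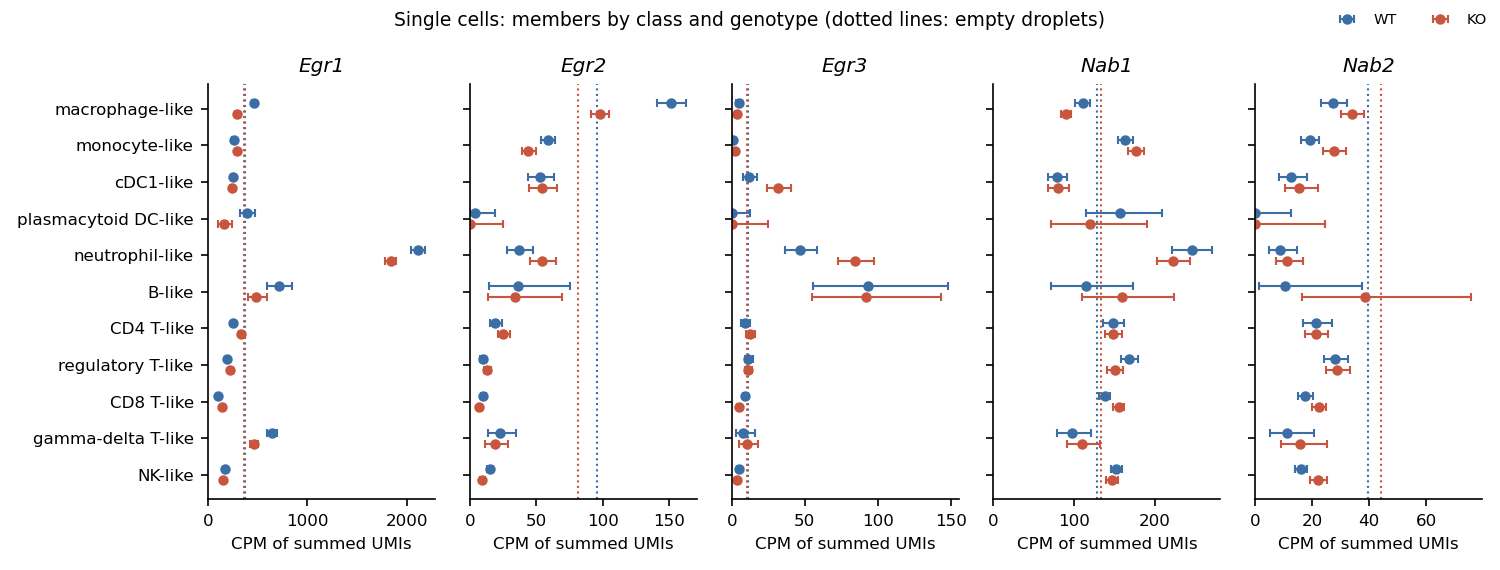
Level of each member in 11 cell classes of the WT and KO matrices, as CPM of summed UMIs with 95% Poisson intervals and linear axes from 0, and dotted lines at the level in empty droplets. Egr2 was highest in macrophage-like cells (151 and 97.4 CPM) and Egr1 in neutrophil-like cells (2111 and 1841 CPM).

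The macrophage and monocyte clusters were taken 1 by 1, because 2 of the 7 stayed unnamed. Cluster 2, led by Arg1, Pf4 and Retnla, scored alike for monocytes and macrophages (1.11 and 1.07), and cluster 4, led by Ccl17, Mmp12 and Mgl2, held more markers of type 2 dendritic cells than of macrophages among its leading genes. Pooling all 7 was chosen after this was seen. Egr2 fell into levels that differed several-fold between clusters. It was highest in cluster 1, a macrophage-like cluster led by Nos2, at 211 CPM (193 to 231) in WT. Cluster 2 had 208 CPM (193 to 223), cluster 4 had 180 (173 to 188) and the interferon-marked monocyte-like cluster 8 had 169 (147 to 193). Each of these overlapped its neighbour in this order except clusters 2 and 4. Cluster 16, macrophage-like and led by Ccl12, Vcam1 and C1q genes, had 111 CPM (98.5 to 125). Cluster 3, monocyte-like and led by Chil3 and Mgst1, had 36.9 CPM (32.3 to 42.0). Cluster 15, also macrophage-like with C1q genes, had 35.9 CPM from 11 UMIs in 115 shallow cells. Egr1 was spread in another way. Clusters 16 (528 CPM), 2 (507) and 8 (490) overlapped at the top in WT. Cluster 1 (447) followed and overlapped cluster 8. Then came clusters 4 (336) and 3 (210), with cluster 15 at 39.1.

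In KO, Egr2 was lower in all 7 of these clusters, and the intervals of the genotypes lay apart in 4 of them. The C1q-marked cluster 16 went from 111 to 58.6 CPM, a ratio of KO over WT of 0.527. Cluster 3 went from 36.9 to 25.7 CPM (0.695), cluster 4 from 180 to 140 (0.780) and cluster 2 from 208 to 179 (0.863). In the Nos2-led cluster 1 the level was 211 CPM in WT and 205 in KO (0.971), and in cluster 8 it was 169 and 163 (0.967), with overlapping intervals in both. Thinned cells with an Egr2 UMI in cluster 1 were 27.2% in WT and 29.6% in KO. Cluster 15 had 35.9 and 16.6 CPM, with overlapping intervals. Over the pooled clusters Egr2 went from 146 to 115 CPM (0.788), while the shares of thinned cells with an Egr2 UMI, given above, had overlapping intervals. With the KO clusters weighted as in WT the KO level was 118 CPM. Depth differed in cluster 16, where the median cell had 13749 UMIs in WT and 20832 in KO. In this cluster of 167 WT and 251 KO cells, thinned cells with an Egr2 UMI were 13.9% in WT and 10.0% in KO, with overlapping intervals.

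Egr1 went down with Egr2 in some clusters and the other way in 1. It went from 528 to 245 CPM in cluster 16 (0.465), from 336 to 204 in cluster 4 (0.609) and from 507 to 403 in cluster 2 (0.794). In the Chil3-led monocyte-like cluster 3 it went up from 210 to 269 CPM (1.28), with the intervals apart, while Egr2 went down there. Thinned cells with an Egr1 UMI did not follow these levels in clusters 3 (24.8% in WT and 24.1% in KO) and 2 (36.2% and 37.7%), but did in clusters 16 (45.8% and 28.9%) and 4 (34.0% and 24.4%). Clusters 1 and 8 had 447 and 437 CPM, and 490 and 413 CPM, with overlapping intervals. The summed level of 24 other immediate early genes was lower in KO in each of clusters 16 (19591 and 12370 CPM), 4 (24224 and 19340), 3 (21775 and 18931) and 1 (38729 and 28596). Their part in the EGR values was not tested. Nab2 was higher in KO in all 7 clusters, with the intervals apart in cluster 4 (22.4 and 31.6 CPM), and its pooled level went from 24.4 to 33.5 CPM (1.37). Nab2 was also higher in KO over all other clusters, at 17.7 and 21.8 CPM (1.23, intervals apart). In empty droplets Nab2 was at 39.6 CPM in WT and 44.3 in KO, with overlapping intervals. Nab1 was lower in 4 clusters and higher in 3, with overlapping intervals throughout, and its pooled level was 108 CPM in WT and 110 in KO. Egr3 had 5.04 CPM in WT and 6.18 in KO over the pool, from 144 and 180 UMIs, with overlapping intervals. In each of the 7 clusters its level was below that of empty droplets.

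**Figure D4:**
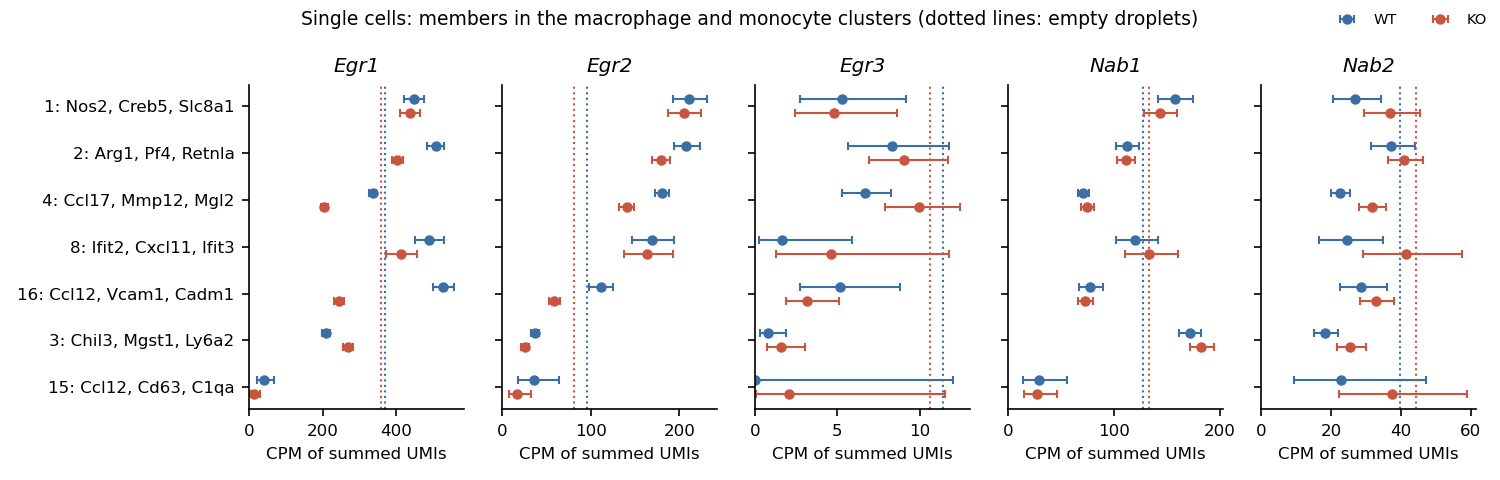
Level of each member in the 7 macrophage and monocyte clusters, named by their number and 3 leading genes, as CPM of summed UMIs with 95% Poisson intervals and linear axes from 0, and dotted lines at the level in empty droplets. Egr2 ran from 211 CPM in cluster 1 to 35.9 in cluster 15 in WT, and all 7 KO values lay lower.

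Set beside the bulk result, the levels of Egr2 and Egr1 were lower in KO in both assays, without a replicate in the single cell data. The ratio of KO over WT for Egr2 was 0.536 in bulk and 0.788 in the pooled clusters, and for Egr1 it was 0.748 and 0.808. Egr3 differed, with a ratio of 0.591 in bulk and 1.23 in the pooled clusters, where its few UMIs left the intervals overlapping. For Nab2 the ratios were 1.08 and 1.37, and for Nab1 1.06 and 1.02. The bulk libraries and the matrices come from different cell preparations and normalizations, and the difference between the assays was not tested.

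Outside macrophages and monocytes, the members moved in several directions. Pooled over all other clusters, Egr2 was at 17.2 CPM in WT and 16.3 in KO, and Egr1 at 286 and 290. NK-like cells had 15 and 9.32 CPM of Egr2, with the intervals apart (0.621). Egr1 was higher in KO in CD8 T-like cells (99.3 and 138 CPM, 1.39), CD4 T-like cells (251 and 327) and regulatory T-like cells (188 and 220). It was lower in neutrophil-like cells (2111 and 1841), gamma-delta T-like cells (641 and 461), B-like cells (711 and 486) and NK-like cells (168 and 153). Thinned cells with an Egr1 UMI went the other way in B-like cells (51.5% in WT and 54.1% in KO), so no direction is read there. In CD4 T-like, NK-like and gamma-delta T-like cells the intervals of the thinned shares overlapped. Egr3 was higher in KO in neutrophil-like cells (46.6 and 84.4 CPM, 1.81) and in cDC1-like cells (12.1 and 31.6 CPM, 2.62). The cDC1-like UMIs lay in 19 of 212 WT cells and 24 of 169 KO cells. After thinning, 3.02% and 3.61% of cDC1-like cells had an Egr3 UMI, with overlapping intervals. Their ratio could be formed under only 2 of the alternatives (2.64 and 3.25). The cDC1-like cluster also scored for type 2 dendritic cells (scores of 2.797 for cDC1 and 2.37). In CD8 T-like cells Egr3 was at 9.18 and 4.65 CPM (0.507), but its 102 WT UMIs lay in 23 of 1037 cells and its 65 KO UMIs in 38 of 1473. The share of these cells with an Egr3 UMI was 2.22% in WT and 2.58% in KO, so no direction is read there either. Summed immediate early genes in CD8 T-like cells were at 7730 CPM in WT and 7789 in KO. Nab2 in NK-like cells was at 16 and 22 CPM, with the intervals apart.

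Within the macrophage and monocyte clusters, cells with Egr2 had Egr1 more often. After thinning, 43.8% of 735 WT cells with an Egr2 UMI also had an Egr1 UMI, against 29.3% of the cells without one. In KO the shares were 43.8% of 612 cells and 26.6%. For Nab1 the shares were 19.2% and 21.1% in WT, and for Nab2 6.67% and 4.75%. These are cells of 1 matrix each and of clusters with unlike levels, so the shares are a description.

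Across the 11 classes in both matrices (22 points, which share 2 libraries and differ in depth), Egr2 resembled Ccdc71l (Pearson r = 0.897), the endocytic adaptor gene Dab2 (0.892), the urokinase gene Plau (0.888), Taf13 (0.885) and Gm31763 (0.882) most closely, among 6328 genes with at least 50 CPM in 1 point. Egr1 was most like the clock gene Per1 (0.903), Tbc1d15, Arih2, the chemokine gene Cxcl3 and Rffl (0.860). Egr3 was most like N4bp2 (0.879) and the B cell chemokine receptor gene Cxcr5 (0.875), and Nab1 like Nedd9 (0.836). The B-like points, the highest for Egr3 in both matrices, rest on 18 and 19 Egr3 UMIs. Nab2 was most like the adaptor gene Dok2 (0.874). Among the members themselves the closest pair was Egr1 and Egr3 (0.620), while Nab1 and Nab2 did not run together (-0.003). Across the 7 macrophage and monocyte clusters in both matrices (14 points), Egr2 was most like Klf7 (0.958), the ornithine decarboxylase gene Odc1 (0.932), Myc (0.932), Rgs1 (0.928) and the decoy receptor gene Il1r2 (0.918), and stood at 0.778 with Egr1. These values describe likeness of levels on the log2(CPM + 5) scale.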

How the data were processed

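Per the file headers, the authors made the bulk counts with featureCounts 2.0.6 on GENCODE vM10 exons, counting both reads of a pair and ignoring strand, so antisense partners cannot be told apart. UMI counts of all barcodes were deposited, made with Cell Ranger 8.0.1 according to their headers. Each peak has a score in the deposited lists. The submitters' processing notes name mm10. The aligner and peak caller were not given in the sources used.

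Counts were tested with edgeR 4.0.16 in R 4.3.3 (quasi-likelihood F-test, filterByExpr, TMM, Benjamini-Hochberg over all genes). DESeq2 1.42.0 was an alternative. On simulated counts, the edgeR test called 63% of 100 genes changed 1.5-fold, 78% of 100 changed 2-fold and 10 of the other genes. Of 48440 identifiers, 48058 had a symbol.

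Cell filters were a minimum of 500 genes and of 1000 UMIs and a maximum of 10% mitochondrial UMIs. Scrublet removed 501 WT and 319 KO doublets. Clusters were made in scanpy 1.11.5 by the Leiden method at resolution 1, from 30 components of 1997 variable genes and 15 neighbours. A cluster was named if at least 3 markers of its best class were in at least 20% of its cells, the 2 best scores lay at least 0.05 apart, and markers of another class were not more frequent among its 10 leading genes.

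The design also planned EGR2 and ATAC peaks around the members. These were left out, since the peak lists did not lie on the coordinates of the gene models (values in the closing section).

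The members, the gene lists and the markers were chosen with earlier results of these data known. Named genes are the 5 members, Ogt, Lyz2, Egr4, up to 4 called genes per list with the smallest adjusted p, and the 5 genes most alike to a member. Fos, Nr4a2, the alternative activation genes that rose and the T cell clusters of the closing section were named after their values were seen. Promoter sequences are from RefSeq.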

Additional observations from a re-analysis of the deposited data

Results flagged for a closer look

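Some members were higher in KO in 1 group of single cells and lower in another, with the 95% Poisson intervals of the genotypes apart in both. With 1 matrix per genotype, none of these differences was tested. For Egr1, the ratio of KO over WT was above 1 in CD8 T-like (1.39), CD4 T-like (1.3), regulatory T-like (1.17) and monocyte-like cells (1.13). It was below 1 in plasmacytoid dendritic cell-like (0.409), macrophage-like (0.617), B-like (0.684), gamma-delta T-like (0.719), neutrophil-like (0.872) and NK-like cells (0.91). Thinned cells with an Egr1 UMI did not follow the level in B-like cells (51.5% in WT and 54.1% in KO) or in monocyte-like cells (27.3% and 26.7%). Macrophage-like cells took 49.3% of their UMIs from cluster 16 in WT and 66.0% in KO. Among the macrophage and monocyte clusters, Egr1 had a ratio of 1.28 in cluster 3 and of 0.465, 0.609 and 0.794 in clusters 16, 4 and 2. For Egr3, the ratio was 2.62 in cDC1-like and 1.81 in neutrophil-like cells against 0.507 in CD8 T-like cells. After thinning, 3.02% of WT and 3.61% of KO cDC1-like cells had an Egr3 UMI, with overlapping intervals. The CD8 T-like value rests on 102 UMIs in 23 WT cells against 65 in 38 KO cells. There the share of cells with an Egr3 UMI was higher in KO (2.22% and 2.58%), so the opposite direction is not borne out by cells. For Nab1, it was 1.12 in CD8 T-like and 0.812 in macrophage-like cells. The latter turned to between 1.02 and 1.11 under the 6 alternatives of cell filter, doublets and clustering, and the intervals overlapped in each of clusters 1, 15 and 16.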

How the results depend on the processing

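In bulk, Egr1, Egr2 and Egr3 were called lower under all 11 alternatives, with log2 fold changes from -0.44 to -0.40, from -0.95 to -0.86 and from -0.88 to -0.67. Nab1 (0.0422 to 0.124, adjusted p 0.1106 to 0.6655) and Nab2 (0.0928 to 0.161, adjusted p 0.1091 to 0.4016) passed under none. Replicate numbers did not pair the samples: correlations of same-numbered libraries were -0.0048, 0.0019 and 0.0112. With the number as a replicate block, 4691 genes were called in place of 4874, and Egr2 had a log2 fold change of -0.90. Leaving out 1 library, the mean log2 ratio of Egr2 to Egr1 ran from -0.514 to -0.444 and that of Egr2 to Nab2 from -1.04 to -0.979.

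In the pooled macrophage and monocyte clusters, the ratio of KO over WT for Egr1 was 0.808 and moved to 0.836 with doublets kept and to 0.855 without cluster 4. For Egr2 it was 0.788 and moved to 0.827 and 0.873. Without cluster 4, Nab1 went from 1.02 to 0.91. Leaving out clusters 4 and 15 was chosen after seeing the data. In named macrophage-like cells, where the Nab1 ratio was 0.812, it reversed under each clustering alternative: 1.03 with the stricter cell filter, 1.02 with the looser one and at resolution 0.5, 1.05 with doublets or the members kept, and 1.11 at resolution 2. The cause was not tested. Of the single cell values under all alternatives, 169 stayed within counting error, 48 moved beyond it and 6 reversed. Alternatives for the peaks were not run, because the lists could not be placed on genes. Low UMI counts limit Egr3 and the B-like and plasmacytoid dendritic cell-like classes.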

Other observations

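Egr3 differed among T cell clusters. In cycling CD8 T-like cells (cluster 14, led by Mki67 and Top2a among others) it was at 15.2 CPM in WT, from 90 UMIs in 15 of 353 cells, and at 3.204 CPM in KO, from 16 UMIs in 12 of 300 cells. The share of cells with an Egr3 UMI was 4.25% and 4.0%, so a few WT cells carried the difference in level. In the other CD8 T-like cluster, led by Cd8b1 and Gzmk, it was at 2.32 CPM in WT and 5.46 in KO, from 12 and 49 UMIs in 8 of 684 and 26 of 1173 cells. The intervals overlapped in this cluster. Egr1 went up in both, from 66.8 to 106 CPM and from 136 to 156 CPM. In cluster 12, led by Sidt1, Tcf7 and Lef1 and left unnamed, Egr3 was at 6.24 CPM in WT and 16.1 in KO, with UMIs in 2.74% and 6.37% of cells. These are values of 1 matrix per genotype, with no test.

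The deposited peak lists were set against the gene models of the count tables, which follow GENCODE vM10. All distances from gene 5′ ends to peak centres up to 1000 kb were counted in bins of 2 kb. For the merged ATAC list of 30189 peaks, the fullest bin lay at a distance of 0 on 1 of 20 chromosomes. On chromosome 10, which holds Egr2 and Nab2, 41 pairs lay within 1 kb of a 5′ end and 420 in the bin at -164 kb, against a median of 35 per bin. On chromosome 11 the values were 85 and 765, the latter at -110 kb, and on chromosome 8 they were 24 and 329, the latter at 726 kb. Summed over chromosomes, the fullest bins held 5168 pairs and the bins at 0 held 1089. For the EGR2 lists, of 5408 WT and 4995 KO peaks, the fullest bin lay at 0 on 0 of 20 chromosomes. No peak was therefore assigned to a member here.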
